A study of Mus musculus with 12 samples.

Results

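miR-24, miR-27a, miR-27b and miR-23b are the 4 assays of the miR-23/24/27 clusters that could be named in a table of raw cycle threshold (CT) values from mouse bone marrow cells. They were chosen by name: 5 names were looked for, miR-23a, miR-23b, miR-24, miR-27a and miR-27b, without the starred opposite arms. The table numbers its 593 assays and does not name them. An assay took the name of a miRNA where its CT in the cytoplasmic and nuclear samples matched the values the study printed for that miRNA, or else where its whole cell differences did. In this way 269 assays were named, miR-24, miR-27b and miR-23b by their CT and miR-27a by its whole cell differences only. No assay took the name miR-23a, so it is not described here. Of the 4 members, 3 were read below a CT of 30, the limit used for a reading that counts, and miR-23b was above it in every sample.

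The cells were sorted by flow cytometry from the bone marrow of C57BL/6 mice at 4 stages. LSK cells lack lineage markers, carry Sca1 and cKit, and include blood stem cells and early progenitors. The later stages are those of neutrophil maturation in order, promyelocytes, myelocytes and granulocytes. Each stage gave whole cell, cytoplasmic and nuclear RNA, 1 sample of each, so there were 12 samples, each reverse transcribed from 100 ng of RNA and read on TaqMan array cards. A CT is the cycle at which the PCR product of a well crosses a threshold, so template is more abundant where the CT is lower, and at full efficiency 1 cycle is a 2-fold difference. A well that never crossed it is listed at 40. With 1 sample per stage and fraction, no difference below has a replicate check, no test was made, and the values describe these samples. In bulk RNA, fewer cells of a type and less RNA per cell cannot be told apart.

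The members come from a pair of related gene clusters. A cluster is transcribed as a single long precursor, from which the Drosha and Dicer enzymes cut each hairpin and then each mature miRNA. The miR-23a cluster is known in blood as a target of the myeloid transcription factor PU.1, and its forced expression favours myeloid over lymphoid development. miR-27 is known to act on Runx1, a transcription factor of blood formation, and miR-24 on genes of the cell cycle and of the response to DNA damage.

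In the RefSeq annotation of GRCm38.p6, the miR-23a cluster covered 404 bases on the plus strand, at chr8:84208518-84208921. It held Mir23a, Mir27a and Mir24-2, overlapped the annotated hairpin Mir3074-2, lay in no host gene, and sat between Mir181c and Zswim4. The miR-23b cluster covered 792 bases of the plus strand, at chr13:63300484-63301275, inside the gene Aopep and before Fancc. It held Mir23b, Mir27b and Mir24-1 and overlapped Mir3074-1. The mature sequences from RefSeq are shown because they set what each assay can tell apart, with the seed, bases 2 to 8, in capitals. The seed is the stretch that pairs with a target mRNA.
miR-24-3p: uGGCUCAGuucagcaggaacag
miR-27a-3p: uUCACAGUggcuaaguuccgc
miR-27b-3p: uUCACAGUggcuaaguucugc
miR-24-3p is encoded at chr8:84208875-84208896 in Mir24-2 and at chr13:63301251-63301272 in Mir24-1, with 22 of 22 bases identical. The miR-24 assay therefore reads the sum of the clusters and cannot assign its product to either. miR-27a-3p (chr8:84208727-84208747) and miR-27b-3p (chr13:63300760-63300780) share 20 of 21 bases, differ by C19U counted from the 5′ end, and have the same seed. No other entry among 1679 mature miRNAs of the RefSeq table had the seed UCACAGU, whereas GGCUCAG was also held by miR-5124b, miR-6369, miR-6410 and miR-6413. How far the assays of miR-27a and miR-27b cross-react was not tested.

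The opposite arms of the same hairpins, written with a star in the older naming, differ more between the clusters. They are shown because they give each cluster a reading of its own, which miR-24-3p cannot.
miR-24-2-5p: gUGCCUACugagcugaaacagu
miR-24-1-5p: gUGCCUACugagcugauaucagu
miR-27a-5p: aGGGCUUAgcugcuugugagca
miR-27b-5p: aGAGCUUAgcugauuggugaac
miR-24-2-5p, read by the miR-24-2* assay, and miR-27a-5p, read by miR-27a*, come from chr8:84208839-84208860 and chr8:84208685-84208706. miR-24-1-5p (chr13:63301213-63301235) and miR-27b-5p (chr13:63300718-63300739) belong to the miR-23b cluster. Over the first 22 bases the arms of miR-24-2 and miR-24-1 had 17 in common, all their differences lying from base 17 on, and those of miR-27a and miR-27b had 14 in common. Both counts compare bases in place, without gaps. miR-24-2-5p and miR-24-1-5p are 22 and 23 bases long and end alike, so a gap would leave fewer differences between them. How far the assays of these arms cross-react was not tested.

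Between 259 and 288 assays of a whole cell sample, 263 and 294 of a cytoplasmic sample and 199 and 229 of a nuclear sample were read below CT 40. Markers of stem and progenitor cells and of granulocytes ran with the LSK and granulocyte labels. None in the list was particular to promyelocytes or myelocytes, and markers of other lineages also varied. Whole cell miR-223, the abundant miRNA of granulocytes, went from 24.0 in LSK to 16.4 in granulocytes, and miR-142-3p, found in all blood lineages, from 25.3 to 20.6. The stem and progenitor markers miR-125a-5p, miR-125b-5p, miR-126-3p, miR-130a and miR-196b had their lowest whole cell CT in LSK, and miR-126-3p is also a platelet miRNA. Lymphoid miR-150 read 25.1 in LSK, then 28.8, 25.6 and 25.8 over the later stages, lowest outside LSK in myelocytes, and miR-155 went from 26.1 to 30.1. The erythroid marker miR-486 was listed at 40 in LSK and promyelocytes and read 31.5 in myelocytes and 31.7 in granulocytes; miR-451 and miR-144 were not named. Both miR-150 and miR-486 thus read lower in myelocytes than in promyelocytes, while lymphoid miR-155 read higher, at 28.9 against 27.4. In this step miR-24 and miR-27a were past 2-fold, and the part of other lineages in that was not tested. The whole cell LSK sample stood apart from its own cytoplasmic fraction. Over the 92 to 112 assays of a stage read below 30 in both, the cytoplasmic CT was lower by a median of 1.22 cycles in LSK, and higher by 0.61, 0.14 and 0.50 in promyelocytes, myelocytes and granulocytes. Comparisons with LSK are therefore given in both fractions, and the part of that sample in them was not tested.

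miR-24 had the lowest CT of the members in every sample. The efficiency of the assays was not measured, so CT values rank readings and not amounts of different miRNAs. In whole cell RNA its CT was 24.06 in LSK and then 24.19, 23.12 and 22.09 in promyelocytes, myelocytes and granulocytes. It ranked 11 of 201, 16 of 203, 14 of 211 and 11 of 220 among the named assays below CT 40, in the same order of stages. The cytoplasmic CT was 22.95, 24.43, 23.26 and 22.64, and the nuclear CT was 26.25, 26.86, 26.35 and 25.05. Granulocytes had the lowest CT and promyelocytes the highest in all 3 fractions, with LSK near promyelocytes in whole cell RNA and near granulocytes in cytoplasm. The span over stages was 2.10 cycles in whole cell, 1.79 in cytoplasmic and 1.81 in nuclear RNA.

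miR-27a moved further than miR-24 in whole cell RNA. Its whole cell CT was 29.94 in LSK and then 27.97, 26.54 and 26.17 along maturation, lower at each later stage, with a span of 3.77 cycles. In rank this was 85 of 201 in LSK and 48 of 220 in granulocytes. The cytoplasmic CT was 28 in LSK, then 28.58, 27.00 and 26.67. LSK and promyelocytes thus changed order between these fractions, and myelocytes and granulocytes had the lower CT in both. In nuclear RNA miR-27a was read at 32.72 in LSK and then at 29.27, 30.25 and 28.82.

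miR-27b, with the same seed and the other genomic locus, had another profile. Its whole cell CT was 31.75 in LSK, above the limit, and 28.41, 28.72 and 29.08 in promyelocytes, myelocytes and granulocytes. The lowest CT was thus in promyelocytes and not in granulocytes. In cytoplasm the raw CT of miR-27b varied least of the members, at 28.91, 28.86, 29.01 and 29.63, a span of 0.78 cycles. That order held for raw CT only. Scaled on the mean CT of the assays below 30, miR-27b was at 1.27, 0.0481 and -0.70 against LSK in the later stages, and miR-24 at -0.27, -0.17 and 0.33. The nuclear CT was above the limit throughout, at 33.66, 31.59, 35.10 and 31.49.

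miR-23b, from the same precursor as miR-27b, had the highest CT of the members in every sample. Its CT was 33.36, 31.27, 32.39 and 31.62 in whole cell and 31.29, 31.64, 32.22 and 31.77 in cytoplasmic RNA of LSK, promyelocytes, myelocytes and granulocytes. In nuclear RNA it was read at 34.65 in LSK and listed at 40 in the other 3 stages. As with miR-27b, the whole cell CT was highest in LSK and lowest in promyelocytes. All these readings are above the limit, so that miR-23b enters no count below that uses it.

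**Figure D1:**
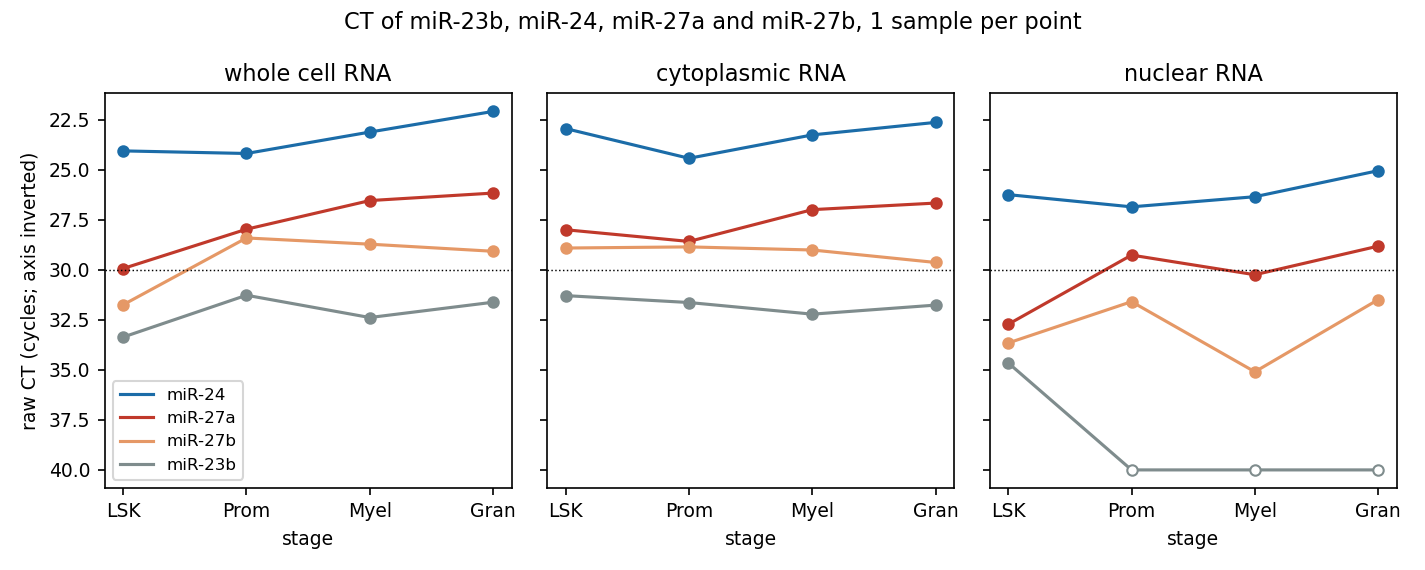
Raw CT (cycles, axis inverted so that more template is higher) of miR-24, miR-27a, miR-27b and miR-23b in LSK, promyelocytes, myelocytes and granulocytes, with 1 sample per point, the limit of 30 dotted and undetermined wells open at 40. miR-24 lies above the other members in every panel, from 22.09 to 26.86, and the lines of miR-27a and miR-27b come closest in promyelocytes in whole cell and cytoplasmic RNA.

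To compare stages, the whole cell CT differences were scaled on the last 3 assays of the table, by their mean CT, and an assay counted as changed where the log2 change was at least 1 in size and the CT was below 30 in either stage. The members were set beside all assays read in this way. Over the 6 pairs of stages there were 18 readings of miR-24, miR-27a and miR-27b, of which 11 were higher in the later stage by 2-fold or more and 1 was lower. Over all assays, 37.9% of 759 such readings were higher and 14.5% lower. Of the 11, 3 are miR-27b against LSK, where its CT of 31.75 was above the limit, and the pairs of stages share their samples.

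From LSK to promyelocytes miR-27b was higher by 3.09 and miR-27a by 1.72 on the log2 scale, and miR-24 was at -0.38. That is 2 of 3 members higher, against 30.4% of the 115 assays read, whose median change was 0.34. In each comparison with LSK miR-27b entered only through the later stage, where it was higher, and its call and fold rest on an LSK reading limited by detection. miR-23b had a value of 1.84, from readings above the limit. In cytoplasm the plain CT differences for this step were 0.06 for miR-27b, -0.58 for miR-27a, -1.48 for miR-24 and -0.34 for miR-23b, beside a median of -1.28 over 130 assays. The negative cytoplasmic signs of miR-27a and miR-23b held only without scaling, since scaled on the mean CT of the assays below 30 they were at 0.63 and 0.87. miR-24 was then at -0.27, and at 0.37 with the last 3 assays as reference, so its cytoplasmic sign depended on the scaling too. Relative to the median of each fraction, miR-27b and miR-27a lay above it in both, and miR-24 below it in both.

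From promyelocytes to myelocytes miR-27a was higher by 1.44 and miR-24 by 1.08, and miR-27b was at -0.30. These are 2 of 3 members, against 38.5% of 122 assays and a median of 0.59. Both calls depended on the scaling: miR-24 was at 0.64 on the mean CT of the assays below 30 and 0.31 on their median CT, and miR-27a just under 2-fold at 0.997 and at 0.67, while miR-27b was at -1.07 on the median CT. The cytoplasmic differences had the same order, at 1.59 for miR-27a, 1.17 for miR-24 and -0.16 for miR-27b, with a median of 1.22 over all assays. In this step miR-27a lay above the median of all assays in both fractions and miR-27b below it, while miR-24 was above it in whole cell RNA and just below it in cytoplasm.

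From myelocytes to granulocytes no member changed by 2-fold with this scaling: miR-24 was at 0.59, miR-27a at -0.06 and miR-27b at -0.79, and 16.2% of 130 assays changed in either direction. Without scaling miR-24 was at 1.03, past 2-fold, and miR-27a at 0.37, so the call of the former and the sign of the latter depended on the scaling. Cytoplasmic differences were 0.63, 0.33 and -0.62 for miR-24, miR-27a and miR-27b, with a median of 0.15 over all assays. With the last 3 assays as reference, miR-24 was at -0.96, miR-27a at -1.26 and miR-27b at -2.21 there, beside a median of -1.44.

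Over longer intervals, myelocytes against LSK gave 3.16 for miR-27a, 2.79 for miR-27b and 0.70 for miR-24, 2 of 3 members past 2-fold against 46.8% of 124 assays, with miR-27b again above the limit in LSK. On the mean CT miR-24 was at -0.0248, so its sign depended on the scaling. The plain cytoplasmic differences were 1.0 for miR-27a, -0.10 for miR-27b and -0.32 for miR-24, beside a median of -0.32, so that miR-27b was level between these stages in that fraction. Granulocytes against promyelocytes gave 1.67 for miR-24, 1.38 for miR-27a and -1.09 for miR-27b. In that comparison 49.6% of 133 assays were higher by 2-fold, as 2 of the members were, and 20.3% were lower, as miR-27b was. Without scaling miR-27b was at -0.67 and no longer past 2-fold, and miR-27a was under it at 0.93 on the mean CT and 0.85 on the median CT. In cytoplasm the corresponding differences were 1.79, 1.92 and -0.78, with a median of 1.37.

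Granulocytes against LSK showed all 3 members higher, miR-27b from an LSK reading above the limit: miR-27a by 3.09 (8.54-fold), miR-27b by 2.0 (3.99-fold) and miR-24 by 1.30 (2.46-fold). At 2-fold, 51.1% of 135 assays were higher, and the median of all was 1.06, so that the shift of miR-24 was close to that of the assays in general. The scaling mattered to that median, which was 1.74 with no scaling, 0.34 with scaling on the mean CT of the assays below 30 and 0.71 with scaling on their median. On the mean CT, miR-24 was at 0.57 and miR-27b at 1.27, and on the median CT miR-24 was at 0.94, so that miR-24 passed 2-fold on neither. In cytoplasm the plain differences were 1.33 for miR-27a, 0.31 for miR-24 and -0.72 for miR-27b, with a median of -0.23. The sign for miR-27b was therefore opposite in the fractions, and miR-27a was highest of the members in both.

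**Figure D2:**
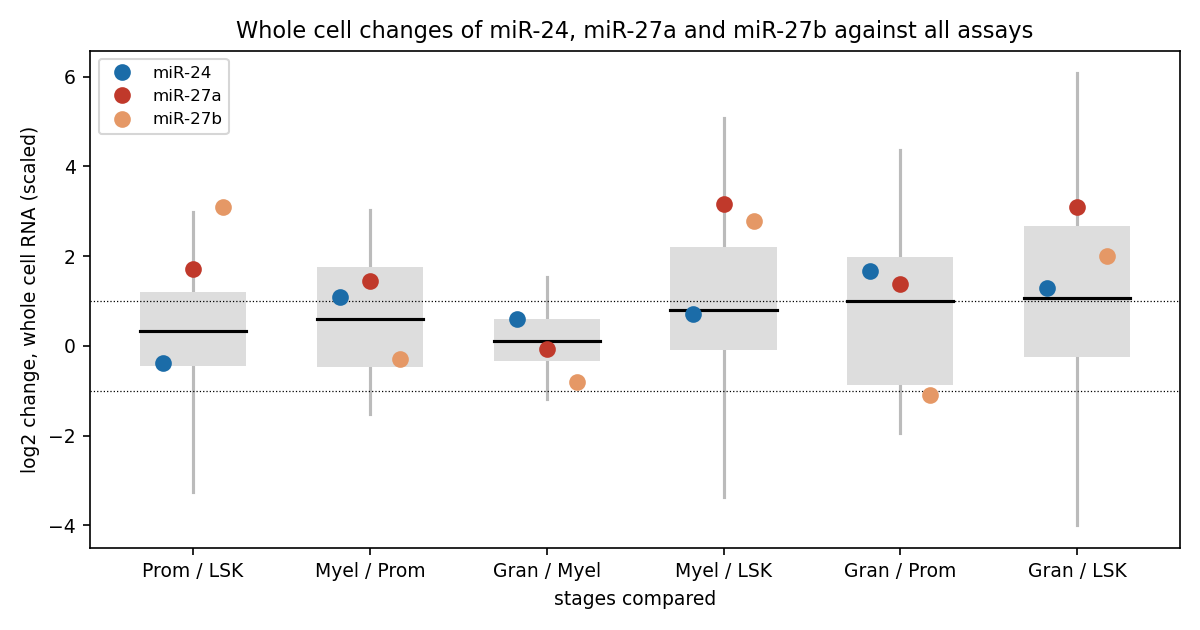
Scaled log2 change in whole cell RNA for each pair of stages, with miR-24, miR-27a and miR-27b as points, the median of all assays read as a black line, the middle 50% as a grey box and the 5th to 95th percentile as a grey line; dotted lines mark 2-fold. miR-27b, at 3.09, lies above the grey line in promyelocytes against LSK and, at -1.09, below the box in granulocytes against promyelocytes.

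Differences between members within a sample carry no scaling, since any difference in input moves both assays alike. miR-27a and miR-24 are neighbours in the miR-23a cluster, but miR-24 also comes from the other cluster. The CT of miR-27a minus that of miR-24 was 5.88 cycles in whole cell LSK and then 3.78, 3.42 and 4.08 along maturation. In cytoplasm it was 5.05, 4.15, 3.73 and 4.03, and in nuclei 6.48, 2.41, 3.90 and 3.77. LSK had the widest difference in all 3 fractions, and myelocytes the narrowest in whole cell and cytoplasmic RNA. From LSK to granulocytes the difference narrowed by 1.80 cycles in whole cell and by 1.02 in cytoplasmic RNA.

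Between the paralogs, the CT of miR-27a minus that of miR-27b was -1.81, -0.44, -2.18 and -2.91 in whole cell RNA of LSK, promyelocytes, myelocytes and granulocytes. In cytoplasm it was -0.91, -0.27, -2.02 and -2.97. miR-27a had the lower CT in every sample, nuclei included, where the difference ran from -0.93 in LSK to -4.85 in myelocytes. The paralogs were nearest to each other in promyelocytes and farthest apart in granulocytes in both whole cell and cytoplasmic RNA, and the difference widened from LSK to granulocytes by 1.10 and 2.05 cycles. These fractions of a stage come from separate RNA preparations of cells of that stage; whether they came from the same animals is not stated.

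miR-27b and miR-23b are neighbours in the miR-23b cluster. The CT of miR-27b minus that of miR-23b was -1.61, -2.86, -3.67 and -2.55 in whole cell and -2.38, -2.78, -3.21 and -2.13 in cytoplasmic RNA. miR-27b had the lower CT throughout, and the span over stages was 2.05 and 1.08 cycles.

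In whole cell RNA these spans were close to those of assay pairs in general. Those pairs hold only assays below 30 in all 4 samples of a fraction. That limit was not met by miR-27b in whole cell RNA, nor by miR-23b in any fraction. Over the 3403 pairs of assays read below 30 in all 4 whole cell samples, the median span was 2.35 cycles, with quartiles of 1.46 and 3.48, and over 3486 pairs in cytoplasm it was also 2.35, with quartiles of 1.56 and 3.52. miR-27a against miR-24 spanned 2.45 cycles in whole cell and 1.32 in cytoplasmic RNA, and miR-27a against miR-27b spanned 2.47 and 2.70. Of pairs from other clusters, miR-17 and miR-20a spanned 1.20 and 0.49 cycles, miR-93 and miR-106b 1.98 and 1.40, and miR-192 and miR-194 1.72 and 0.92. The cytoplasmic span of miR-27a against miR-24 was therefore below the lower quartile, and that of the paralogs was above the median. All pairs share libraries, so these spans are a description.

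**Figure D3:**
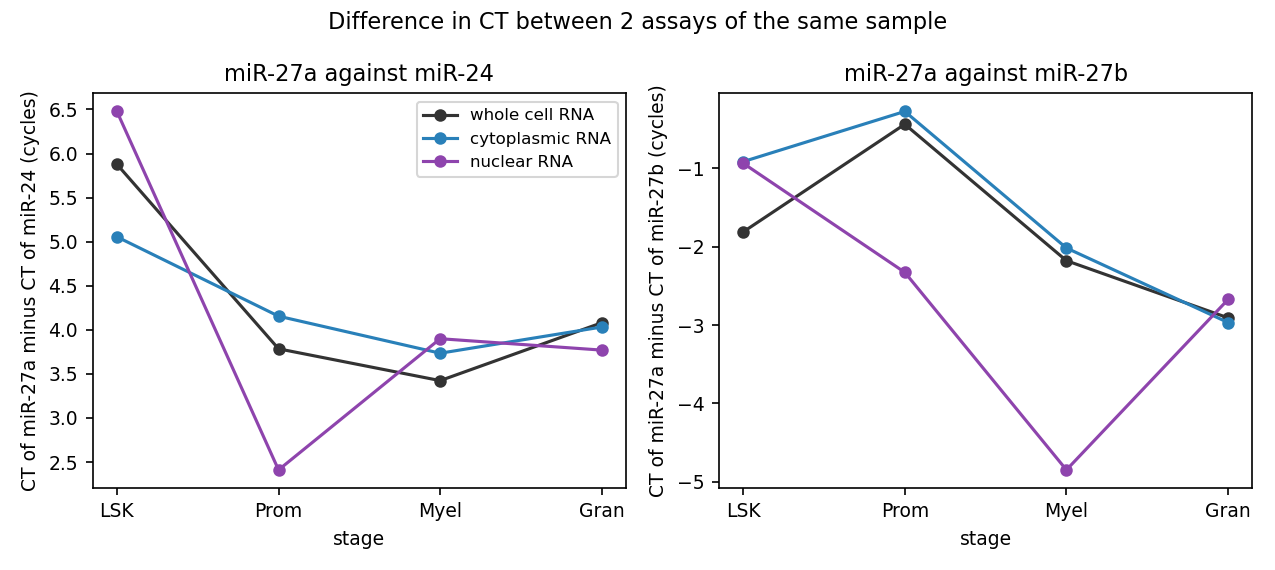
Difference in CT (cycles) between members in the same sample, miR-27a minus miR-24 on the left and miR-27a minus miR-27b on the right, by stage and RNA fraction, 1 sample per point. On the left LSK is highest in every fraction, at 5.88, 5.05 and 6.48, and on the right whole cell and cytoplasmic RNA run together from -0.44 and -0.27 in promyelocytes to -2.91 and -2.97 in granulocytes.

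The opposite arms gave the clusters separate readings. Of 6 starred names looked for, 4 were found, and miR-23a* and miR-23b* were not named. miR-24-2*, from the miR-23a cluster, had a whole cell CT of 30.19, 30.38, 28.52 and 27.15 in LSK, promyelocytes, myelocytes and granulocytes, and a cytoplasmic CT of 29.02, 30.38, 27.92 and 28.55. miR-24-1*, from the miR-23b cluster, was listed at 40 in every sample except promyelocyte nuclei, where it was read at 33.67. Of the pair of loci that encode miR-24-3p, only the opposite arm of Mir24-2 was thus read below 30. These CT values are no measure of the share of each locus.

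miR-24-2* had the sign of miR-24 in each whole cell step, but not in each cytoplasmic step. The CT of miR-24 minus that of miR-24-2* was -6.13, -6.19, -5.40 and -5.07 cycles in whole cell RNA and -6.08, -5.95, -4.66 and -5.91 in cytoplasm, spans of 1.13 and 1.42 cycles. Scaled log2 changes of miR-24-2* in whole cell RNA were -0.43 from LSK to promyelocytes, 1.87 from there to myelocytes and 0.93 from there to granulocytes. In cytoplasm the plain differences were -1.36, 2.46 and -0.63 for miR-24-2* and -1.48, 1.17 and 0.63 for miR-24, opposite in sign from myelocytes to granulocytes. The step in which the signs differed depended on the scaling. With the last 3 assays as reference, miR-24-2* and miR-24 were at -2.22 and -0.96 from myelocytes to granulocytes. They were then opposite from promyelocytes to myelocytes, at 0.78 and -0.51. From LSK to granulocytes the star arm was higher by 2.37 in whole cell RNA, against 1.30 for miR-24, and in cytoplasm the plain differences were 0.48 and 0.31.

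miR-27a* had a whole cell CT of 31.31, 29.80, 29.88 and 29.05 and a cytoplasmic CT of 30.91, 30.30, 29.40 and 29.15. Granulocytes had the lowest value in both fractions, as for miR-27a. Its scaled whole cell changes were 1.26, -0.07 and 0.39 over the successive steps, so that it had no counterpart to the difference of 1.44 of miR-27a between promyelocytes and myelocytes. In cytoplasm the plain difference for that step was 0.90 for miR-27a* and 1.59 for miR-27a, beside a median of 1.22 over all assays. Scaled on the mean CT of the assays below 30, these were -0.17 and 0.52.

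miR-27b* was above the limit in every sample. Its whole cell CT was 33.70, 31.46, 37.04 and 40, the last an undetermined well, and its cytoplasmic CT was 32.65, 31.48, 33.18 and 35.10. Promyelocytes had the lowest CT and granulocytes the highest in both fractions. From promyelocytes to granulocytes the cytoplasmic CT of miR-27b* rose by 3.63 cycles and that of miR-27b by 0.78, while those of miR-27a and miR-27a* were lower by 1.92 and 1.15. Both arms of miR-27b thus had a higher CT in granulocytes than in promyelocytes, and both arms of miR-27a a lower one, in whole cell and cytoplasmic RNA. For miR-27a* this held for raw CT and for the last 3 assays as reference in whole cell RNA. Scaled on the mean CT of the assays below 30, it was at -0.12 in whole cell and -0.0379 in cytoplasmic RNA.

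**Figure D4:**
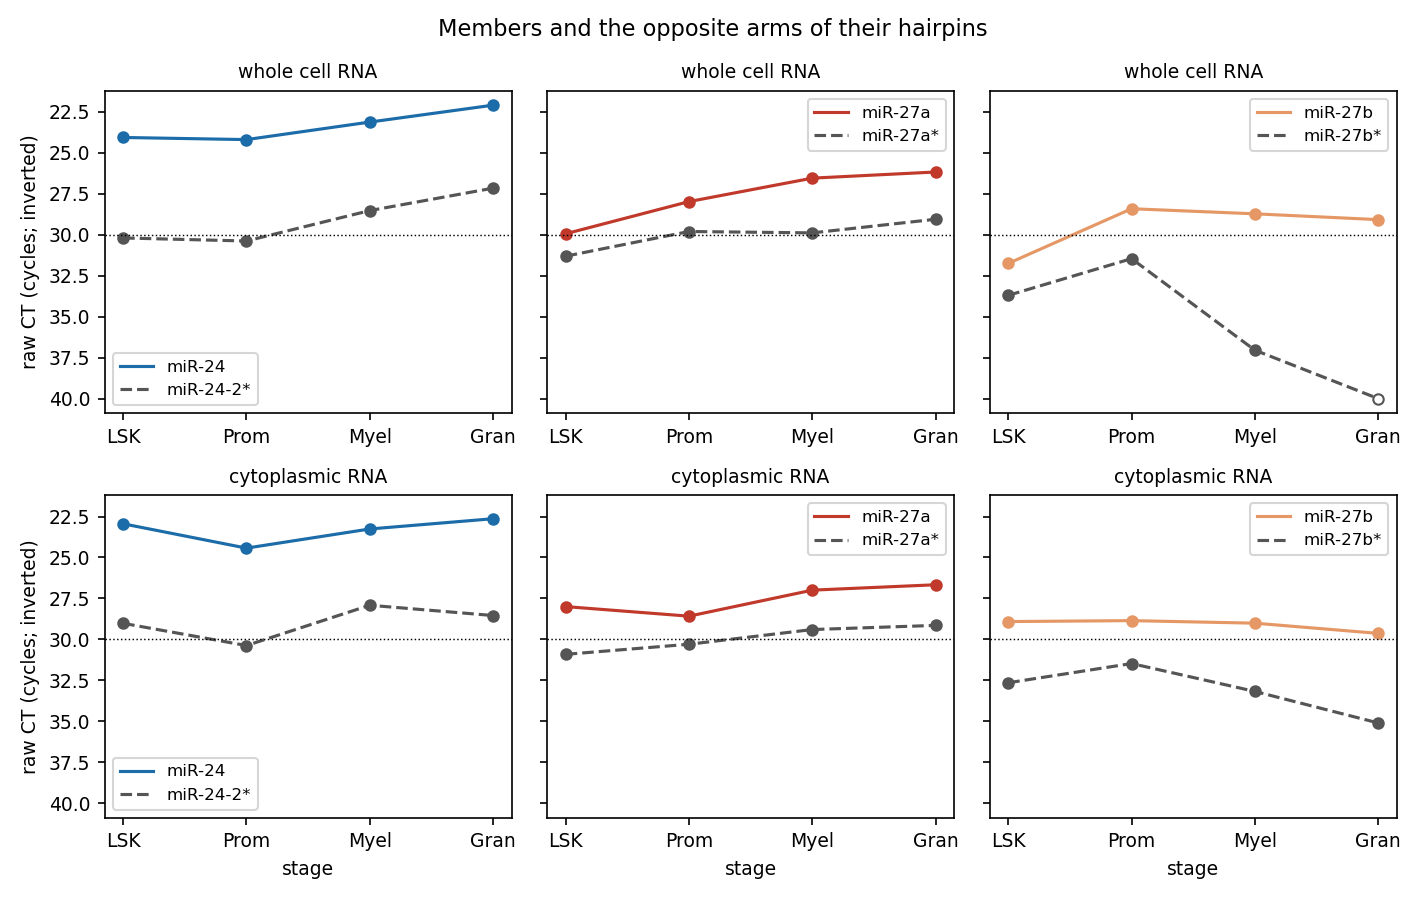
Raw CT (cycles, axis inverted) of miR-24, miR-27a and miR-27b, solid, with the opposite arm of the same hairpin, dashed, in whole cell RNA (top) and cytoplasmic RNA (bottom), 1 sample per point, the limit of 30 dotted and an undetermined well open at 40. miR-27b* lies lowest, from 31.46 to 40 in whole cell RNA, and its line drops after promyelocytes.

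All members had a higher CT in nuclei than in cytoplasm at every stage. The nuclear minus cytoplasmic CT of miR-24 was 3.30 cycles in LSK and then 2.43, 3.09 and 2.41. Over all assays with a cytoplasmic CT below 30, the median was 4.18, 2.82, 3.94 and 2.54, over 117, 92, 108 and 110 assays. miR-24 lay below that median at each stage. The labels give the same RNA mass for every sample, whereas the study describes the nuclear and cytoplasmic CT as shown for cell equivalent volumes. Whether these differences compare equal amounts of RNA or equal numbers of cells is therefore not settled here.

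miR-27a stood out in promyelocytes, where its nuclear CT was 0.68 cycles above the cytoplasmic CT, against 4.72 in LSK, 3.25 in myelocytes and 2.15 in granulocytes. Of the 92 assays in that stage, 12 had a smaller difference. That value rests on a nuclear CT of 29.27, close to the limit. miR-27b differed by 4.74, 2.74, 6.09 and 1.86, on nuclear readings all above 30, and miR-23b by 3.36 in LSK.

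As a ratio of nuclear to cytoplasmic template, divided by a constant of 3, miR-24 had values of 0.0338, 0.0620, 0.0392 and 0.0625. miR-27a had 0.0126, 0.208, 0.0350 and 0.0750. Counting nuclear readings below CT 30, there were 6, of miR-24 in 4 stages and of miR-27a in promyelocytes and granulocytes, and 1 ratio was above 0.1, that of miR-27a in promyelocytes. In that stage 39.6% of the 48 assays read in nuclei were above 0.1, with a median of 0.0662. With a nuclear CT below 28 required, none of the members was above 0.1.

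**Figure D5:**
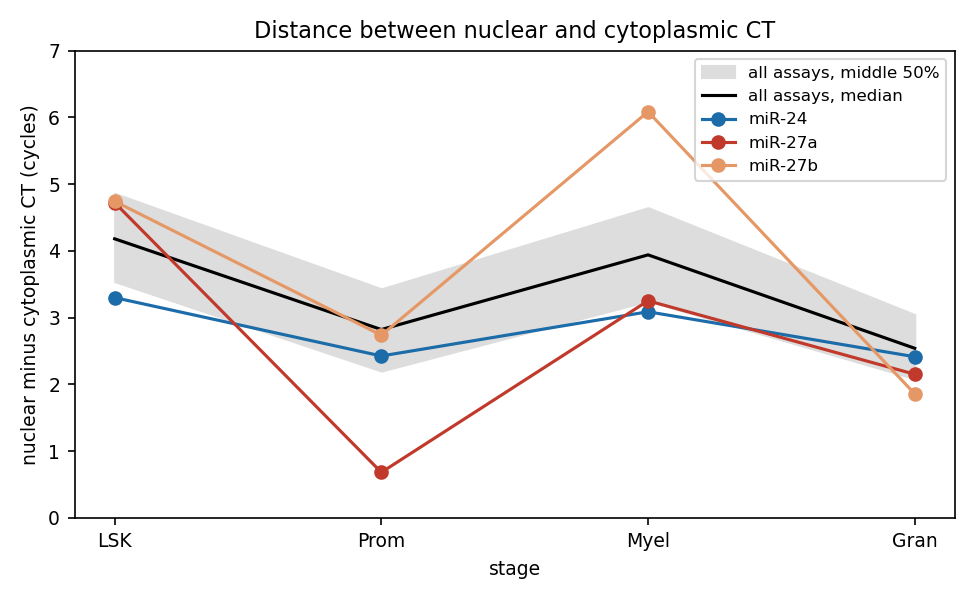
Nuclear minus cytoplasmic CT (cycles) of miR-24, miR-27a and miR-27b by stage, 1 pair of samples per point, with the median (black line) and middle 50% (grey band) of all assays whose cytoplasmic CT was below 30. The median itself varied between 2.54 and 4.18, and miR-27a in promyelocytes, at 0.68, and miR-27b in myelocytes, at 6.09, lie farthest outside the band.

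Likeness of profile was measured as the root mean square difference in CT over the 8 whole cell and cytoplasmic samples, each profile centred on its own mean, among named assays read below 30 in all 8. The nearest to miR-24 were miR-30c at 0.190 cycles, miR-328 at 0.196 and miR-425 at 0.260, with a median of 0.785 over 65 assays. miR-27a was 29th in that order, at 0.754. The nearest to miR-27a were miR-93 at 0.266, miR-15b* at 0.358 and miR-744 at 0.378, and miR-24 was 21st. For miR-27b they were miR-20a at 0.480, miR-221 at 0.606 and let-7i at 0.623, with miR-27a 27th and miR-24 42nd of 66. For miR-23b, on readings above 30, they were miR-221 at 0.130, miR-19a at 0.331 and miR-17 at 0.360. miR-27b and miR-23b, above 30 in some or all of these samples, could not be listed as neighbours. Measured in the same way, they were 0.595 cycles from each other, a smaller distance than that of miR-27b to miR-221 or let-7i. It was larger than the distance of miR-27b to miR-20a, and larger than that of miR-23b to each of its 3 nearest. Neither miR-24 nor miR-27a was among the 3 nearest of another member. The samples share their RNA preparations between assays, so these distances are a description.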

How the data were processed

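The study sorted 4 stages of granulocyte maturation from C57BL/6 bone marrow, separated nuclei from cytoplasm with the PARIS kit, extracted RNA with Trizol and ran 100 ng per sample on TaqMan Rodent MicroRNA A and B cards. The deposited values are CT values called by the authors with SDS 2.3 and RQ Manager, without normalization, and no other unit was used. All 12 columns were used. A deposited assay has 1 well per sample, which leaves its precision unknown.

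The members, the opposite arms and the marker list were chosen with earlier results of these data known. Assays were named by a unique match of 8 cytoplasmic and nuclear CT within 0.0005 cycles (246 assays), or of the whole cell differences within 0.002 (23 more, with 0 conflicts). The printed whole cell changes lie on a line against the CT differences (106 assays), whose constants equal the change in mean CT of the last 3 assays of the table, so whole cell changes were scaled on those. The line's slope was 1.71, so the printed changes are larger than the log2 changes given here, which take 1 cycle as 1 on the log2 scale. The same assays shifted by between -1.85 and 3.27 cycles between cytoplasmic stages, so cytoplasmic differences are given unscaled. For ratios, 2 was raised to the cytoplasmic CT less the nuclear CT. Their divisor of 3 is implied by the printed ratios, and its basis is not given in the sources used here.

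Named miRNAs are the members, their opposite arms, the markers, and the 3 assays of nearest profile per member. Pairs from other clusters lie within the same annotated cluster, adjacent except miR-17 and miR-20a, which have Mir18 and Mir19a between them. RefSeq mature sequences and gene positions are those of GRCm38.p6; the deposited table names no build. miR-23b is named without a sequence. With 1 sample per group no test was made. Alternatives changed the scaling, the CT limit, the fold limit, the fold per cycle, the value of an undetermined well, the RNA fraction, the ratio's divisor and limit, and the matching tolerance. The procedures were tested on simulated data. Software was matplotlib 3.10.9, scipy 1.17.1, pandas 2.3.3 and numpy 2.4.6 under Python 3.11.15.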

Additional observations from a re-analysis of the deposited data

Results flagged for a closer look

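miR-27b in myelocytes against LSK moved in opposite directions in whole cell and nuclear RNA. The plain CT difference was 3.03 in whole cell RNA, that is, higher in myelocytes, and -1.44 in nuclear RNA, that is, lower. The difference between the fractions was not tested, each value rests on 1 sample per stage, and the nuclear readings, 33.66 in LSK and 35.10 in myelocytes, as well as the whole cell LSK reading of 31.75, are above a CT of 30.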

How the results depend on the processing

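Of 18 member readings, 12 were past 2-fold, that is 66.7%, against 52.4% of all assay readings; 3 of the 12 are miR-27b against an LSK reading above the limit. The count was 7 at 3-fold (38.9% against 35.2%), 12 without scaling (66.7% against 57%), 8 with the mean CT as reference (44.4% against 49.1%) and 9 with the median CT (50% against 52.4%). It was 15 at 1.5-fold (83.3% against 70%) and 11 in scaled cytoplasm (61.1% against 61.9%). At CT limits of 28, 32 and 35 it was 8 of 12, 15 of 23 and 15 of 24 readings. These are 66.7%, 65.2% and 62.5%, against 49.2%, 54.2% and 59.9%, and the limits of 32 and 35 admit miR-23b. It stayed at 12 with 1.9-fold per cycle (66.7% against 50.1%) and with undetermined wells at 35 (66.7% against 52.4%). The number of members, 4, was the same at both other matching tolerances. For granulocytes over LSK, miR-24 was at 1.30, and at 1.97 without scaling, 0.57 on the mean CT, 0.31 in unscaled cytoplasm and -1.10 in scaled cytoplasm. miR-27a was at 3.09, 1.33 in unscaled cytoplasm and -0.0811 in scaled cytoplasm, and miR-27b at 2.0, 1.27 on the mean CT, -0.72 in unscaled and -2.14 in scaled cytoplasm. Unscaled cytoplasm also gave -0.34 for miR-23b and -0.58 for miR-27a in promyelocytes over LSK, -0.10 for miR-27b in myelocytes over LSK and -0.47 for miR-23b in granulocytes over LSK. Scaled cytoplasm gave -1.89 for the last of these, -0.51 for miR-24 and -0.0862 for miR-27a in myelocytes over promyelocytes, and -1.47 and -1.35 for them in granulocytes over promyelocytes. In scaled cytoplasm the median of all assays in granulocytes over LSK was -1.65. The change of miR-27a relative to miR-24 within samples, 1.80, was 1.02 in cytoplasm, and relative to miR-27b, 1.10, was 2.05. The single ratio above 0.1 became 6 without the divisor, 0 with a nuclear CT below 28 and 0 at 4 times the stage's median. The cause of these shifts was not tested. Readings above CT 30, which include all of miR-23b and miR-27b*, the nuclear miR-27b and whole cell LSK miR-27b, are limited by detection.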
